A study of Homo sapiens with 6 samples.

Results

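The genes described here are *ATF4*, 3 of its targets (*TRIB3*, *CHAC1* and *ASNS*) and the enzymes that make serine and pass its carbon to folate (*PHGDH*, *PSAT1*, *PSPH*, *SHMT2*, *MTHFD2* and *ALDH1L2*). They were listed by symbol, and the list gave 10 rows of the 58336 genes in the deposited table, each found by its Ensembl identifier. Polyadenylated RNA was sequenced from A2780, an established ovarian cancer cell line, given DMSO vehicle or 6 µM TH588 (TH-588 in the sample labels) for 48 h, with 3 biological replicates (A, B and C) of each treatment. TH588 is an inhibitor of MTH1, an enzyme that clears oxidized nucleotides from the nucleotide pool. Both groups grew in RPMI 1640 with fetal bovine serum, insulin, antibiotics and glutamine, and they stand for a single line in culture.

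ATF4 is the transcription factor of the integrated stress response. When stress kinases phosphorylate the initiation factor eIF2, general translation falls while translation of the *ATF4* message rises, so its protein can change without its mRNA, and only mRNA was measured here. ATF4 pairs with C/EBP proteins on composite sites and turns on genes for amino acid synthesis and uptake. Serine is made from a glycolytic intermediate by PHGDH, PSAT1 and PSPH in turn. SHMT2, MTHFD2 and ALDH1L2 then carry its carbon through the mitochondrial folate pool, which supplies glycine, formate and NADPH to proliferating cancer cells.

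Total counts ranged from 77634048 to 99074175 in 5 libraries and reached 28537837 in TH588 replicate A, where the small nucleolar RNA *SNORD3A* took 21.94% of counts, against 7.68% to 12.95% elsewhere. Levels are given in CPM, counts scaled to the library total and TMM factor, with ± for the SD over n = 3 libraries of a group. Fold changes compare TH588 with vehicle on the log2 scale and carry a standard error (SE). Adjusted p-values are from edgeR's quasi-likelihood test over all 15844 genes tested, called under 0.05. Of 7 markers of ovarian and Müllerian epithelium, all 7 stayed under 1 CPM in every library, and *PAX8*, *EMX2* and *ESR1* did not exceed 3 counts in any. The summed level of 6 epithelial markers was 3.73 to 4.57 CPM under vehicle and 10.7 to 12.1 CPM under TH588, with *KRT7*, *KRT19* and *CDH1* at or under 3 counts, and the part of this rise in the results was not tested. The 5 leukocyte markers summed to 0.742 to 1.27 CPM under vehicle and 0.947 to 1.27 CPM under TH588, with *CD3E* and *CD68* at or under 3 counts, and the 4 endothelial markers to no more than 0.149 CPM in any library, with *PECAM1* and *KDR* at or under 3 counts. The 6 fibroblast markers summed to 1610 to 1930 CPM and 1910 to 2640 CPM, nearly all of it *COL3A1*. The 3 mesenchymal genes *VIM*, *CDH2* and *FN1* summed to 3360 to 3760 CPM and 3350 to 4060 CPM, nearly all of it *VIM*. Under vehicle and TH588, *CDH2* was at 14.4 ± 0.787 and 11.1 ± 1.07 CPM, and *FN1* at 4.35 ± 0.448 and 5.39 ± 0.862 CPM.

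After TH588, *ATF4* mRNA and all 6 serine and mitochondrial folate enzymes were lower, while *TRIB3* and *CHAC1* had means above those of vehicle without passing the threshold and *ASNS* was too low to read. In all, 7 of the 10 members were called lower and 0 higher, against 25.3% of all genes tested called lower and 24.2% called higher. The 3 members not called were *TRIB3*, *CHAC1* and *ASNS*. All 10 passed the filter on low counts, and their median log2 fold change was -0.36, against 0.019 for all genes tested. The groups did not overlap for 8 members, 7 of them lower, where 57.7% of all genes tested did not overlap in either direction. Scaled by library size only, that is by total counts without TMM factors, 3 members were lower and 1, *CHAC1*, was higher. In bulk RNA fewer cells of a type and less RNA per cell cannot be told apart.

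**Figure D1:**
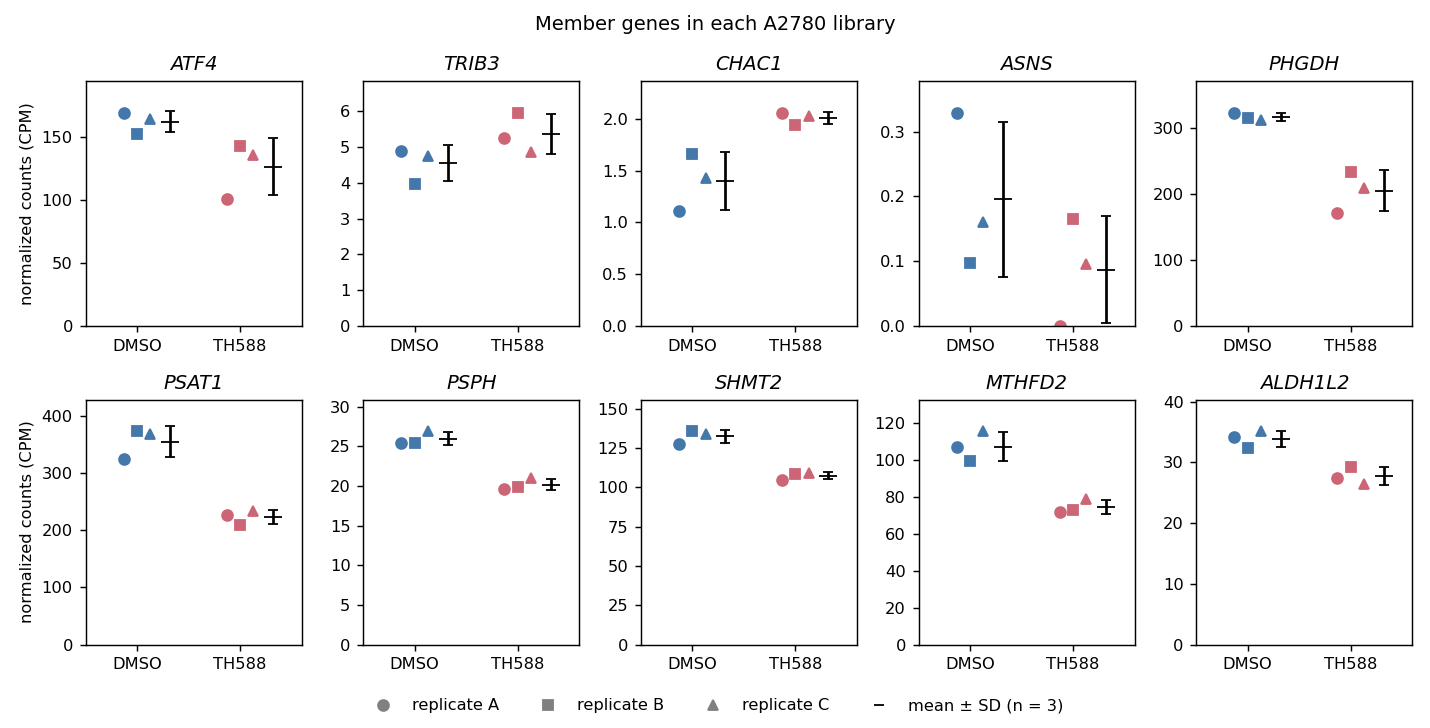
Normalized counts (CPM, linear axes from 0) of the 10 members in each library, with circles, squares and triangles for replicates A, B and C, blue for DMSO and red for TH588, and the mean ± SD (n = 3) beside them. The TH588 points lie below the DMSO points for *ATF4*, *PHGDH*, *PSAT1*, *PSPH*, *SHMT2*, *MTHFD2* and *ALDH1L2*, above them for *CHAC1*, and overlap them for *TRIB3* and *ASNS*.

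The upstream sequences of the members were searched for the letters of C/EBP-ATF composite sites and, apart from these, for the CCAAT box. RefSeq windows of GRCh38.p14 (250 bases before to 50 after a start) matched 7 of the 10 members, with no entry for *PSPH*, *SHMT2* and *ALDH1L2*. The motif TGATGNAA, the core of C/EBP-ATF composite sites, was searched on both strands and was present in 3.6% of all 35116 windows. Among the members it was found for *ASNS*, 68 bases before a RefSeq start, and for *CHAC1*, on the other strand 209 bases before a RefSeq start, and not for *PHGDH*, *PSAT1*, *MTHFD2*, *TRIB3* or *ATF4* itself. The CCAAT box, the motif of NF-Y, was present in 34.6% of all windows on either strand. It was found in those of *PSAT1* (3 times), *CHAC1* (3 times), *MTHFD2* (2 times) and *PHGDH* (1 time). None was found for *ASNS*, *TRIB3* or *ATF4*, and no match of one motif overlapped a match of the other in these windows. A match of letters does not show that a factor binds. Only exact letters within these windows were searched, so the lack of a match does not show that a gene has no site. Each TGATGNAA match and 1 CCAAT box each of *PHGDH* and *MTHFD2* are printed in capitals with the 10 bases on either side, 5′ to 3′ on the strand of the gene. TGATGNAA and CCAAT are different motifs, so the stretches of *PHGDH* and *MTHFD2* are not counterparts of those of *ASNS* and *CHAC1*. The stretches of *ASNS*, *CHAC1* and *PHGDH* lie before a RefSeq start but inside the span of the gene as counted here.
ASNS, chr7:97872459-97872486, minus strand: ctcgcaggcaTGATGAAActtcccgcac
CHAC1, chr15:40953252-40953279, plus strand: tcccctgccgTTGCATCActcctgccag
PHGDH, chr1:119711853-119711877, plus strand: gtatttccgtCCAATcaaaaggaga
MTHFD2, chr2:74198531-74198555, plus strand: gcggcagggaCCAATgggtggcgga
The 250 bases before the start of *PSAT1*, the member with the largest called fall, are shown in full, with its 3 CCAAT boxes in capitals. *CHAC1*, which was not called lower, also held 3, and *ATF4*, which was called lower, held none. A link between the box and the fold change was not tested.
PSAT1, chr9:78296875-78297124, plus strand: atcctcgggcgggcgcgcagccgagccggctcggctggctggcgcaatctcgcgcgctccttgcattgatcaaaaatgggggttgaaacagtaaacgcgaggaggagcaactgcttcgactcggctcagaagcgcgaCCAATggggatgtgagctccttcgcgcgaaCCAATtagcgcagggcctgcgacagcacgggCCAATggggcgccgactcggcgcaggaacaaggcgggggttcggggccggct

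*ATF4* (ENSG00000128272) lies on chromosome 22 of GRCh38 from 39519695 to 39522685, on the plus strand. It was at 169, 153 and 164 CPM in DMSO replicates A, B and C, against 100.4, 143 and 136 CPM in TH588 replicates A, B and C. The groups did not overlap, and TH588 replicate A stood well below the other TH588 libraries. The mean went from 162 ± 8.41 to 126 ± 22.7 CPM, a log2 fold change of -0.36 (SE 0.12, edgeR adjusted p = 0.0235), or 21.9% lower. Without TH588 replicate A, the shallowest library, it was -0.21 (edgeR adjusted p = 0.0368). Without DMSO replicate A or C and with library size only it missed the threshold, at -0.31, -0.33 and -0.24. The annotated copies *ATF4P1*, *ATF4P2*, *ATF4P3* and *ATF4P4* held at most 40 counts in any library.

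The genes whose profile over the 6 libraries lay nearest to that of *ATF4*, among 9762 genes whose log2 CPM averaged 2 or more, were *SH3D19*, *HP1BP3* and *GTF2IRD1*. Their log2 CPM, centred on each gene's own mean, differed from that of *ATF4* by a root mean square of 0.027, 0.032 and 0.039. Like *ATF4*, each was lowest in TH588 replicate A, at 15.3, 84.4 and 16.3 CPM. The other TH588 libraries lay between 20.1 and 118 CPM for these genes. Genes chosen for a near profile share its lowest library by that choice, so this is a description only.

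The first 2 enzymes of serine synthesis carried the largest called falls among the members, and the last enzyme a smaller one. *PHGDH* (ENSG00000092621), the first enzyme of the pathway, spans 119648411 to 119744226 on the plus strand of chromosome 1. Its level was 324, 316 and 312 CPM in DMSO replicates A, B and C, against 172, 234 and 209.9 CPM in TH588 replicates A, B and C. Every TH588 library was below every DMSO library, and replicate A was again the lowest. The log2 fold change was -0.63 (SE 0.10, edgeR adjusted p = 0.00031), or 35.2% lower, and -0.50 without TH588 replicate A.

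*PSAT1* (ENSG00000135069), the aminotransferase of the next step, lies on chromosome 9 from 78297143 to 78330093, plus strand. It stood at 325, 373 and 368 CPM under vehicle and at 226, 210.0 and 233 CPM under TH588, in the order A, B and C. The TH588 libraries were close to each other, with replicate B and not A the lowest. The log2 fold change of -0.67 (SE 0.08, edgeR adjusted p = 3.73e-05) was the largest called fall of the 10 members. *PSPH* (ENSG00000146733), the phosphatase that releases free serine, lies on the minus strand of chromosome 7 from 56011051 to 56051604. It was at 25.5, 25.4 and 26.9 CPM under vehicle and at 19.6, 19.8 and 20.9 CPM under TH588, a log2 fold change of -0.36 (SE 0.09, edgeR adjusted p = 0.00402). The groups were apart by more than the range within either. The call was lost with library size only, at -0.26. The copy *PSPHP1* held 91 to 357 counts per library, and reads that *PSPH* shares with it are uncertain. Summed, the 3 enzymes took 698 ± 21.5 CPM under vehicle and 449 ± 26.5 CPM under TH588.

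The mitochondrial folate enzymes were lower too, *MTHFD2* more than *SHMT2* and *ALDH1L2*. *SHMT2* (ENSG00000182199), which splits serine into glycine and a folate-bound carbon, lies on chromosome 12 from 57229327 to 57234935, plus strand. It was at 128, 136 and 134 CPM in DMSO replicates A, B and C, against 105, 108 and 109 CPM in TH588 replicates A, B and C, with a gap between the groups wider than the spread in either. Its log2 fold change was -0.30 (SE 0.07, edgeR adjusted p = 0.00443), and -0.20 with library size only, where the call was lost. *MTHFD2* (ENSG00000065911), the mitochondrial dehydrogenase and cyclohydrolase, spans 74198562 to 74217565 on the plus strand of chromosome 2. It was at 107, 99.3 and 115 CPM under vehicle and at 71.7, 72.9 and 78.7 CPM under TH588. All TH588 libraries were below the lowest DMSO library, and the log2 fold change was -0.52 (SE 0.08, edgeR adjusted p = 0.000233). Exons of other genes cover 36.8% of its representative (MANE Select) transcript, mostly the opposite-strand gene *SLC4A5*, which held at most 3 counts, and the library kit named in the labels, TruSeq RNA v2, does not mark strand.

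*ALDH1L2* (ENSG00000136010), the mitochondrial formyltetrahydrofolate dehydrogenase that yields NADPH, lies on the minus strand of chromosome 12 from 105019784 to 105084577. Its level was 34.2, 32.4 and 35.1 CPM under vehicle and 27.5, 29.3 and 26.5 CPM under TH588, so the groups did not overlap. The log2 fold change of -0.29 (SE 0.08, edgeR adjusted p = 0.0127) was the smallest called fall of the members. It missed the threshold without DMSO replicate A (-0.26), DMSO replicate C (-0.25) or TH588 replicate C (-0.23), and with library size only (-0.18). Together *SHMT2*, *MTHFD2* and *ALDH1L2* summed to 273.5 ± 9.59 CPM under vehicle and 209.6 ± 5.26 CPM under TH588.

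Among the members, the targets outside the serine pathway (*TRIB3*, *CHAC1* and *ASNS*) were not called in either direction. Other targets of ATF4 moved in both directions and are given below with the pathway lists. *TRIB3* (ENSG00000101255) encodes a pseudokinase that is induced by ATF4 and feeds back on it, and lies on chromosome 20 from 362835 to 397559, plus strand. It was at 4.90, 3.97 and 4.76 CPM under vehicle and at 5.27, 5.96 and 4.86 CPM under TH588. The groups overlapped, since TH588 replicate C was below DMSO replicate A, and the log2 fold change was 0.24 (SE 0.14, edgeR adjusted p = 0.18). *CHAC1* (ENSG00000128965) encodes an enzyme that degrades glutathione and is widely used as a readout of ATF4 activity, and lies on chromosome 15 from 40952962 to 40956519, plus strand. It was at 1.11, 1.66 and 1.43 CPM under vehicle and at 2.05, 1.94 and 2.02 CPM under TH588. All TH588 libraries were above all DMSO libraries, but at this low level the log2 fold change of 0.52 (SE 0.21) did not pass the threshold (edgeR adjusted p = 0.0541). It passed in 4 of 15 other settings, namely library size only, limma-voom, at least 10 counts in every library, and without DMSO replicate B.

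*ASNS* (ENSG00000070669), asparagine synthetase and a classical target of ATF4 with a TGATGNAA match before a RefSeq start, cannot be read as a level in these counts. It held 27, 8 and 15 counts in DMSO replicates A, B and C, against 0, 18 and 8 counts in TH588 replicates A, B and C. These values overlap, and no change was called (log2 fold change -0.85, SE 0.71, edgeR adjusted p = 0.345). The gene lies on the minus strand of chromosome 7 from 97852118 to 97872542. Exons of a second gene of the table on the same strand, ENSG00000284707, cover 2374 of the 2385 bases of the MANE Select transcript of *ASNS*, and all other genes together cover 99.5%. ENSG00000284707 itself held 19 to 50 counts per library. Reads that fall on exons of 2 genes are left uncounted by the default of the counting tool, the setting used is not stated in the sources, and its part in the low count was not tested. Exons of other genes cover 0% of the representative transcripts of *ATF4*, *TRIB3*, *CHAC1*, *PHGDH*, *PSAT1* and *PSPH*, 6.2% of that of *SHMT2* and 2.0% of that of *ALDH1L2*.

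**Figure D2:**
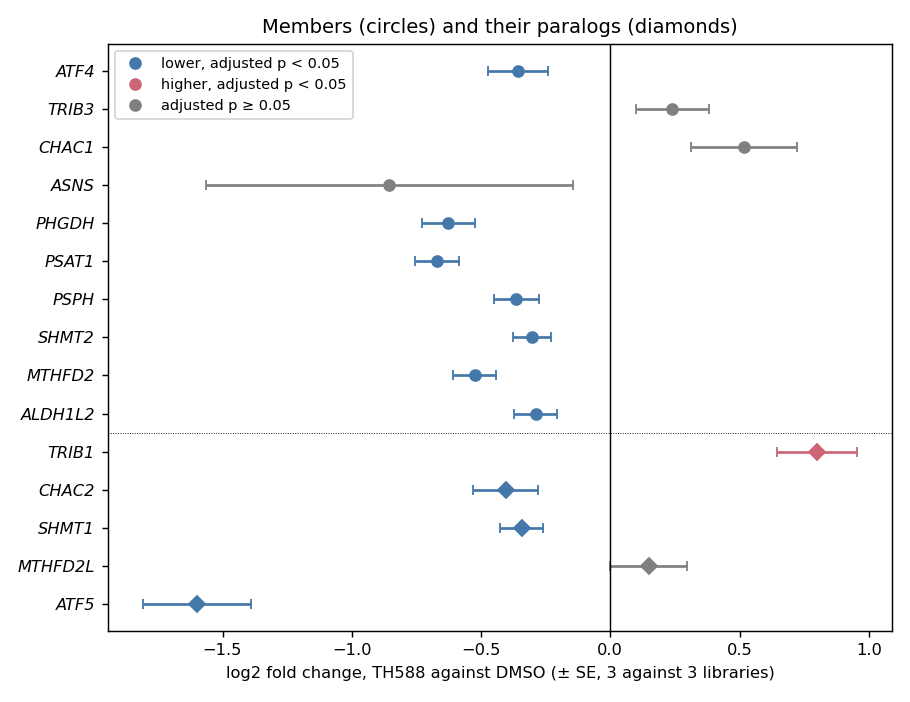
Log2 fold change of TH588 against DMSO with its SE for the 10 members (circles) and 5 tested paralogs (diamonds), from 3 against 3 libraries. The 7 blue circles lie left of 0, from -0.67 for *PSAT1* to -0.29 for *ALDH1L2*, *TRIB3* and *CHAC1* lie right of 0 in grey, and the bar of *ASNS* is by far the widest.

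The size of the fall varied between libraries more for some members than for others. Against the DMSO mean, *ATF4* was at -0.69, -0.18 and -0.26 on the log2 scale in TH588 replicates A, B and C, and *PHGDH* at -0.88, -0.44 and -0.60. *SHMT2* was at -0.34, -0.29 and -0.28, and *MTHFD2* at -0.58, -0.55 and -0.44. *ATF4* and *PHGDH* were thus lowest in the shallowest library by a wide margin, and *SHMT2* varied least of these genes.

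Between genes, levels were compared as mean CPM per kb, and the order at the top depended on the length used. Per kb of the exon length in the table, which joins all isoforms, the order under vehicle was *PSAT1* (162 ± 12), *ATF4* (64.4 ± 3.34), *PHGDH* (34.4 ± 0.618), *SHMT2* (27.4 ± 0.863), *MTHFD2* (22.0 ± 1.63), *PSPH* (9.38 ± 0.294), *ALDH1L2* (3.98 ± 0.158), *TRIB3* (1.32 ± 0.146) and *CHAC1* (0.68 ± 0.135). That length is 9.217 kb for *PHGDH*, whose MANE Select transcript has 1866 bases. Per kb of the MANE Select transcript, *PHGDH* (170.1 ± 3.05) and *PSAT1* (161 ± 12.0) did not differ beyond their spread under vehicle, and *ATF4* (114 ± 5.92) and *SHMT2* (61.4 ± 1.94) came next. The order of the other members was the same by both lengths, from *SHMT2* through *MTHFD2*, *PSPH*, *ALDH1L2* and *TRIB3* to *CHAC1*, each apart from the next by more than the sum of their SDs. Under TH588, *PHGDH* (110.1 ± 16.8), *PSAT1* (101 ± 5.43) and *ATF4* (89.0 ± 16.0) per kb of that transcript had overlapping spreads, with *SHMT2* (49.8 ± 1.09) below them.

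Paralogs were set beside the members. The cytosolic *SHMT1* fell by 0.34 on the log2 scale (SE 0.08, edgeR adjusted p = 0.00455; -0.24 and not called with library size only), and the log2 ratio of *SHMT2* to *SHMT1* was 0.84 ± 0.12 under vehicle and 0.88 ± 0.10 under TH588, and the groups overlapped. *MTHFD2L*, the related mitochondrial enzyme, was at 5.68 ± 0.532 CPM under vehicle and 6.34 ± 1.05 CPM under TH588 and was not called (log2 fold change 0.15, edgeR adjusted p = 0.433). The log2 ratio of *MTHFD2* to *MTHFD2L* was 4.24 ± 0.23 under vehicle and 3.57 ± 0.24 under TH588, without overlap. *CHAC2*, a close relative of *CHAC1*, fell by 0.40 (SE 0.12, edgeR adjusted p = 0.0171), a call lost with library size only and without DMSO replicate B, and the log2 ratio of *CHAC1* to *CHAC2* was -3.18 ± 0.22 under vehicle and -2.23 ± 0.11 under TH588. No test was run on these ratios, which are given as a description. Of the 5 paralogs tested, *ATF5* included, 1 was higher and 3 lower. *TRIB1* rose by 0.80 (SE 0.15, edgeR adjusted p = 0.000999). *TRIB2* held 1 count in all libraries together and *ALDH1L1*, the cytosolic relative of *ALDH1L2*, held 0 to 5 counts, so neither could be tested.

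The other genes of the pathway moved in both directions, against 49.6% of all genes tested called in either. Of 19 genes for the eIF2 kinases, their regulators, eIF2, eIF2B and the eIF2 phosphatase, 2 were higher and 9 lower (median log2 fold change -0.19), and 2 and 6 by library size only. The 4 kinases *EIF2AK1* (HRI), *EIF2AK2* (PKR), *EIF2AK3* (PERK) and *EIF2AK4* (GCN2) had log2 fold changes of -0.06, -0.08, -0.05 and -0.05, none past the threshold and all above 0 by library size only. *PPP1R15A* (GADD34), the stress-induced subunit that directs dephosphorylation of eIF2, rose from 5.09 ± 0.54 to 12.3 ± 1.75 CPM (log2 fold change 1.28, SE 0.14, edgeR adjusted p = 1.13e-05). *EIF2B3*, *EIF2S1* and *EIF2B1*, for subunits of eIF2B and eIF2, fell by 0.92, 0.91 and 0.83. Exons of other genes cover 22.4% of the MANE Select transcript of *EIF2B1*. *IMPACT*, an inhibitor of GCN2 activation, rose by 0.31, a call lost without DMSO replicate A (and also without TH588 replicate C).

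Among 21 tested bZIP partners and stress targets of ATF4, 7 were higher and 11 lower (median -0.56). The numbers were the same by library size only, with a median of -0.45. *DDIT3* (CHOP), a bZIP factor of prolonged stress, rose from 3.40 ± 0.528 to 6.51 ± 0.434 CPM (log2 fold change 0.94, SE 0.15, edgeR adjusted p = 0.000206), with 35.9% of its MANE Select transcript under exons of other genes, mainly *MARS1*. *ATF3* rose by 0.70 (SE 0.23), a call lost without DMSO replicate A and without TH588 replicate B or C. *ATF5*, a close relative of *ATF4*, fell from 8.13 ± 0.895 to 2.57 ± 0.916 CPM (log2 fold change -1.60, SE 0.21, edgeR adjusted p = 5e-05). *CEBPG*, a C/EBP partner, fell by 0.91, and *CEBPB* was not called (-0.16). Among genes whose log2 CPM averaged 2 or more, the 3 largest rises were those of *KLHL24* (2.78), *SESN2* (1.82) and *DDIT4* (1.50), and after *ATF5* the largest falls were those of *STC2* (-1.29) and *VLDLR* (-1.03). Exons of other genes cover 48.6% of the MANE Select transcript of *DDIT4*.

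Of 20 tested amino acid transporters, 7 were higher and 8 lower (median 0.00). *SLC7A5* (LAT1), a carrier of large neutral amino acids, fell from 415 ± 11.2 to 172 ± 19.9 CPM (log2 fold change -1.27, SE 0.09, edgeR adjusted p = 5.42e-07), and *SLC1A4* and *SLC1A5*, carriers of small neutral amino acids including serine, fell by 1.04 and 1.03. Exons of other genes cover 27.6% of the MANE Select transcript of *SLC1A5*. *SLC43A2*, *SLC43A1* and *SLC7A7* rose by 1.17, 0.85 and 0.61. *SLC7A11*, the cystine carrier, was at 1.65 ± 0.294 and 1.72 ± 0.242 CPM and was not called (edgeR adjusted p = 0.854).

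Of 32 other tested genes of serine, glycine and folate metabolism, 7 were higher and 16 lower (median -0.23), or 7 and 13 by library size only. *MTHFD1*, the cytosolic counterpart of the mitochondrial folate enzymes, and *MTHFD1L*, which releases formate in mitochondria, fell by 0.85 and 0.91. *SLC19A1* (folate carrier), *GGH* (folate hydrolase) and *TYMS* (thymidylate synthase) fell by 1.10, 1.04 and 0.70, with exons of other genes over 35.4% of the MANE Select transcript of *TYMS*. *SARDH* and *GLDC*, for sarcosine breakdown and glycine cleavage, rose by 1.86 and 0.70.

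Of 20 other tested genes of amino acid synthesis, 6 were higher and 7 lower (median -0.22), or 6 and 5 by library size only. *ALDH18A1*, the first enzyme of proline synthesis, fell by 0.52 (SE 0.08), and *PYCR1*, which completes it, was low at 1.18 ± 0.169 and 1.80 ± 0.168 CPM and called higher at 0.62, a call lost without DMSO replicate B or C or TH588 replicate C. *BCAT1* (branched-chain aminotransferase), *ASNSD1* (a gene with an asparagine synthetase domain) and *OAT* (ornithine aminotransferase) fell by 1.31, 0.81 and 0.79. *CTH* (cysteine synthesis), *GOT1* (cytosolic aspartate aminotransferase) and *GLUL* (glutamine synthetase) rose by 0.99, 0.37 and 0.25. The call of *GLUL* was lost without DMSO replicate B or C or TH588 replicate B. *GOT2*, the mitochondrial aspartate aminotransferase, fell by 0.58 (edgeR adjusted p = 0.000116), from 106 ± 5.30 to 71.0 ± 5.56 CPM. *GOT1* went from 72.2 ± 0.739 to 93.5 ± 9.60 CPM.

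**Figure D3:**
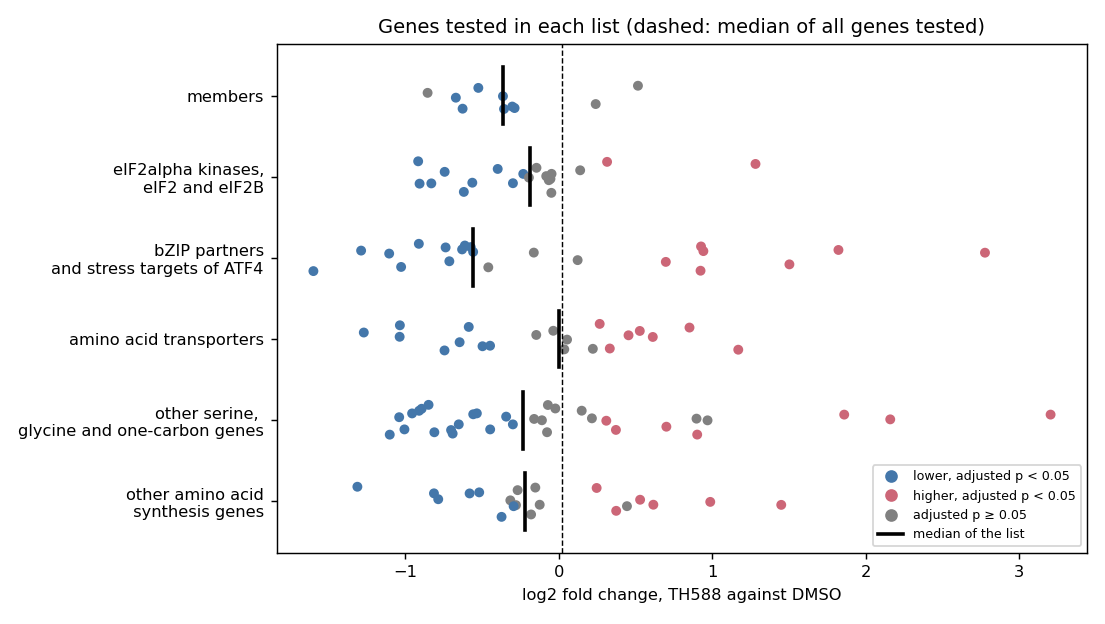
Log2 fold change of each tested gene, TH588 against DMSO, in the members and in 5 lists of related genes (rows), coloured by direction where the adjusted p is under 0.05 and grey otherwise, with black bars for list medians and a dashed line at 0.019, the median of all genes tested. Members called lower cluster between -0.67 and -0.29, while the list of bZIP partners and stress targets runs from -1.60 for *ATF5* to 2.78 for *KLHL24*.

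**Figure D4:**
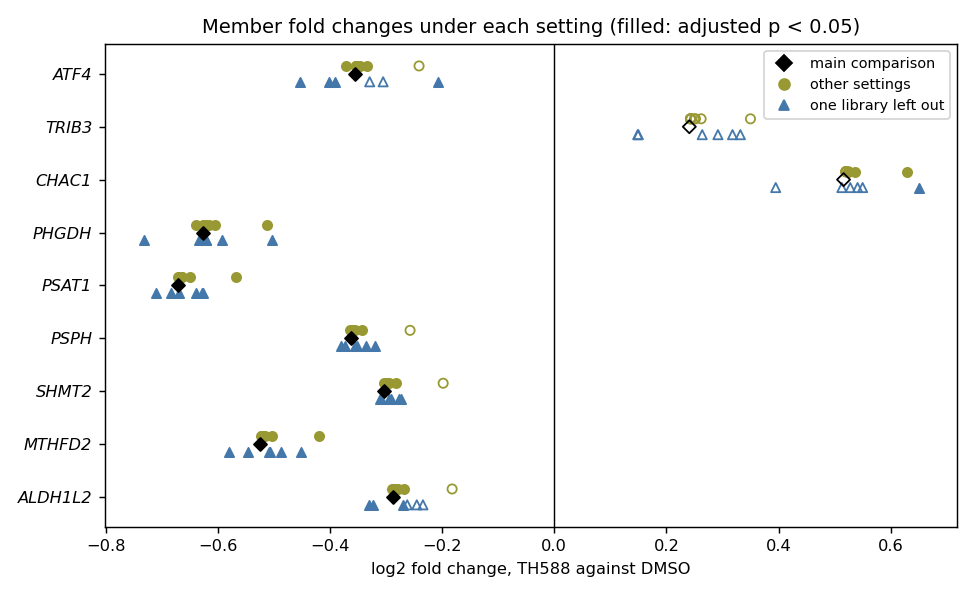
Log2 fold change of 9 members (*ASNS* is left out for its low counts) in the main comparison (diamonds), under other normalizations, filters, tools and the replicate block (circles) and with each library left out (triangles), filled where the adjusted p is under 0.05. *PHGDH*, *PSAT1* and *MTHFD2* are filled throughout, and the circle set apart to the right for each gene is library size only.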

How the data were processed

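Counts per gene from 6 libraries of A2780 cells (3 with DMSO, 3 with TH588) were analysed. The authors aligned reads to GRCh38 with TopHat and made the counts with featureCounts 1.4.6. The deposited counts are whole numbers without normalization. The sources give UCSC gene models for an Ensembl-named table, and neither the strand setting of the counting nor its treatment of shared reads is stated. Symbols were matched for 57754 of 58336 genes. Groups were taken from the treatment labels.

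Genes were filtered, TMM-normalized and compared with edgeR 4.0.16 (R 4.3.3) by the quasi-likelihood test without a term for the replicate letter, with Benjamini-Hochberg adjustment over 15844 genes. SE was taken as the absolute log2 fold change over the root of F. Alternatives were DESeq2 1.42.0 and its size factors, limma-voom (3.58.1), library size only, omission of the 10 most abundant genes, no filter, a minimum of 10 counts per library, leaving out each library, a replicate block and an adjusted p under 0.01. On simulated counts with 189 changed genes among 15167 tested (log2 change of 1), 71.4% were recovered and 6 unchanged genes were called. That change was larger than any called fall of a member, so recovery at the members' fold changes was not tested. Nor was a setting tested in which as many genes change as in the data, where 49.6% were called.

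The members and lists were chosen with earlier results of these data known, so no set test was run. Besides the members, named genes were their paralogs, a fixed set of pathway genes, and the 3 largest rises and falls of each list with an adjusted p under 0.05, log2 CPM averaging 2 or more and groups apart. Some genes that this rule names are not reported here. Replicates of a group differed by a chi-square per degree of freedom of 23.5 to 165.3, so each library counted once. A count of 0 allows 3 counts, 0.0276 to 0.1121 CPM by library, which covers counting error only.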

Additional observations from a re-analysis of the deposited data

How the results depend on the processing

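No member changed direction under any alternative run. The fall of *PHGDH*, *PSAT1* and *MTHFD2* stayed past the threshold in all 15. By library size only, 4 members were called, 3 of them lower, the one setting in which the number of called members moved by more than 1.5 times, and 60.4% of all called genes were higher, against 48.9% with TMM, while the median of all genes tested went from 0.019 to 0.126. The members' median went from -0.36 to -0.249 in the same setting. No filter also raised the median of all genes tested, to 0.141. Leaving out 1 library gave member medians from -0.403 to -0.305 and 5 to 8 members called, 5 without DMSO replicate A or C. Across all alternatives, 11 values of single members lost the threshold and 4 gained it, the latter all for *CHAC1*. At an adjusted p under 0.01, 5 members were called, without *ATF4* and *ALDH1L2*, and 5831 genes in all.

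No pairing by replicate letter was seen: after removing the group means, libraries with equal letters correlated at -0.07 (A), -0.08 (B) and 0 (C). Using a replicate block, 7 members were called, all lower, with a median of -0.368, and 7195 genes in all, of which 7129 were among the 7852 called without it. The block ended the calls of *PYCR1* and *GLUL*. In the shallowest library, TH588 replicate A, *CHAC1* rested on 55 counts.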
